A study of Rattus norvegicus with 12 samples.

Results

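The glutathione S-transferases described here are 10 rat genes of 6 classes: Gstt1, Gstt2 and Gstt3 (theta), Gstm1 and Gstm2 (mu), Gsta3 and Gsta4 (alpha), Gstp1 (pi), Gstk1 (kappa) and Gstz1 (zeta). They were taken by name from the 14217 genes that the array's annotation names singly, and all of their probe sets were kept. A probe set is the group of short probes that reports 1 transcript. The 10 genes had 11 probe sets, 2 of them for Gstt2, of 20826 tested.

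The study hybridised liver RNA of male Wistar rats, labelled as 5 weeks old, to 12 Affymetrix arrays, 1 animal to an array. All rats first ate the purified AIN93G diet for 4 days. In the maple syrup group (6 arrays) the feed then held 20% maple syrup, and in the sugar mix group (6 arrays) it held 20% of a syrup mixed to a like sugar composition. Both diets lasted 11 days and ended with a fast of 16 hours, and livers were kept in RNAlater. The labels give 7 rats fed maple syrup and 8 fed the sugar mix; only the 6 arrays per diet are analysed here. Both groups ate sugar, so neither is an untreated group.

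Glutathione S-transferases join the tripeptide glutathione to reactive molecules, which makes them more soluble and ready for export into bile or blood. The liver is rich in them, and many members rise when the sensors of xenobiotics (the nuclear receptors CAR and PXR, the aryl hydrocarbon receptor AHR) or the oxidant sensor NRF2 are active. The cytosolic alpha, mu, pi, theta and zeta classes share 1 fold, while the kappa class works in mitochondria and peroxisomes. Some members have a housekeeping task, such as Gstz1 in tyrosine breakdown.

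The deposited value is a score with levels like those of log2 intensities, between 5.57 and 15.2 over the table, but arrays differ by very little in it: over the 12 livers a tested probe set had a median standard deviation of 7.65e-06. A difference in this score is not a fold change, and none is given. Diet differences are stated as Hedges' g, the mean of the maple syrup livers less that of the sugar mix livers, divided by their pooled within-diet standard deviation. Values of single livers are stated as deviations from the mean of the 12 livers in units of that probe set's own standard deviation (own SD). The number of arrays limits the precision. The 8 measured hepatocyte markers had levels between 14.06 and 15.21, near the top of the table. The labels give no batch, no 2 arrays held identical values, and no library was left out. Levels of different probe sets depend on their probes and are not ordered here.

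No transferase passed the test between the diets after adjustment over all probe sets. Of the 11 probe sets Gstm2 came nearest, with a limma p of 0.0559 and an exact permutation p of 0.0195, both before adjustment. The spread over the livers differed widely between the genes. The 10 genes ranged from Gstt3, among the most variable probe sets of the whole array, to Gstm1, with 8.75% of probe sets narrower. Genes of the theta and alpha classes had positive correlations with each other across the 12 livers, but none held after adjustment over the 45 pairs of genes. Gstk1 and Gstz1, of other classes, had correlations as high with some of these genes.

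The theta class has 3 members here, which lie close together on chromosome 20 (RefSeq, GRCr8): Gstt2 at chr20:12819053-12822724, Gstt1 at chr20:12856068-12873020 and Gstt3 at chr20:12873618-12881974. Gstt1 acts on small halogenated compounds and Gstt2 on some sulfate esters and peroxides. Gstt3 is a further theta enzyme. Its score averaged 9.43 over the 12 livers. With maple syrup it ran from 9.2922 (replicate 3) through a median of 9.4441 to 9.5789 (replicate 1). With the sugar mix it ran from 9.3189 (replicate 3) through a median of 9.4463 to 9.5169 (replicate 1). The sugar mix livers thus lay inside the range of the maple syrup livers, which held both the lowest and the highest liver. The standard deviation of Gstt3 was 0.0937, the 9th largest of the 20826 probe sets. This wide spread was known when Gstt3 was chosen and is given as a description.

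Gstt1, at a level of 9.23, had a standard deviation of 0.000144, larger than in 93.5% of probe sets. It ran from -2.03 own SD (replicate 5) to 1.53 (replicate 2) with maple syrup and from -1.04 (replicate 4) to 1.11 (replicate 1) with the sugar mix. Again the sugar mix livers lay within the range of the maple syrup livers. The first Gstt2 probe set, the one with the higher mean (10.23), had a standard deviation of 3.98e-05, larger than in 84.4% of probe sets. It ran from -1.71 (replicate 6) to 1.59 (replicate 4) with maple syrup and from -0.66 (replicate 2) to 0.92 (replicate 6) with the sugar mix. The second Gstt2 probe set, at 7.85, showed little relation to the first: Pearson's r between them was 0.16 (permutation p = 0.624) and Spearman's rho was 0.16 (permutation p = 0.619) over the 12 livers. Without the 2 livers farthest from the median of the first, r was 0.40. Values of Gstt2 below are those of the first probe set unless the second is named.

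The mu class members Gstm1 (chr2:198338005-198346007) and Gstm2 (chr2:198312179-198316962) are neighbours on chromosome 2 and encode enzymes that conjugate epoxides and related electrophiles. They differed widely in spread. Gstm1, at a level of 13.51, had a standard deviation of 1.73e-06, larger than in only 8.75% of probe sets. Gstm2, at 9.40, had 0.0234, the 44th largest. Gstm2 ran from 9.4022 through a median of 9.4119 to 9.4276 with maple syrup, and from 9.3357 through 9.3992 to 9.4105 with the sugar mix. Sugar mix replicate 2 was the lowest liver, at -2.78 own SD, while the 6 maple syrup livers were all above the mean of the 12, between 0.07 and 1.16. The groups overlapped, since sugar mix replicate 6 stood at 0.42. Gstm1 ran from -1.59 to 0.61 with maple syrup and from -1.45 to 1.26 with the sugar mix.

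In the alpha class, the probe set named Gsta3 (chr9:31154989-31180653) belongs to the gene that RefSeq also lists under the older names Gsta5 and Yc2, an enzyme known for its action on the epoxide of aflatoxin. Gsta4 (chr8:87947247-87964490) clears 4-hydroxynonenal, a product of lipid peroxidation. Gsta3, at 8.80, had a standard deviation of 0.0174, the 58th largest. It ran from 8.7686 (replicate 5) through a median of 8.7978 to 8.8259 (replicate 1) with maple syrup and from 8.7947 (replicate 4) through 8.8081 to 8.8211 (replicate 1) with the sugar mix. Gsta4, at 10.58, had 0.000301, larger than in 96.0% of probe sets. In Gsta4, maple syrup replicate 2 was the highest liver at 2.21 own SD, and maple syrup replicates 3, 5 and 6 were the lowest, at -1.25, -1.31 and -1.11. The sugar mix livers lay between -0.15 and 1.08. In both alpha genes the lowest and the highest liver were from the maple syrup group.

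Gstp1 (chr1:210767237-210770242) is scarce in normal hepatocytes and is a classic marker of early neoplastic foci in rat liver. Its standard deviation of 8.97e-06, at a level of 9.39, was near the middle of the array, larger than in 54.8% of probe sets. It ran from -1.35 to 0.95 own SD with maple syrup and from -1.46 to 0.99 with the sugar mix. Gstk1 (chr4:72085532-72089934), the kappa enzyme, had a standard deviation of 0.00101 at a level of 10.63, larger than in 98.1% of probe sets. It ran from -2.14 (replicate 4) to 1.48 (replicate 2) with maple syrup and only from -0.12 to 0.88 with the sugar mix. Gstz1 (chr6:112525576-112536228), the maleylacetoacetate isomerase of tyrosine breakdown, was narrow, with a standard deviation of 3.60e-06 at a level of 12.69, larger than in 25.4% of probe sets. It ran from -1.33 to 1.55 with maple syrup and from -0.50 to 1.59 with the sugar mix.

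**Figure D1:**
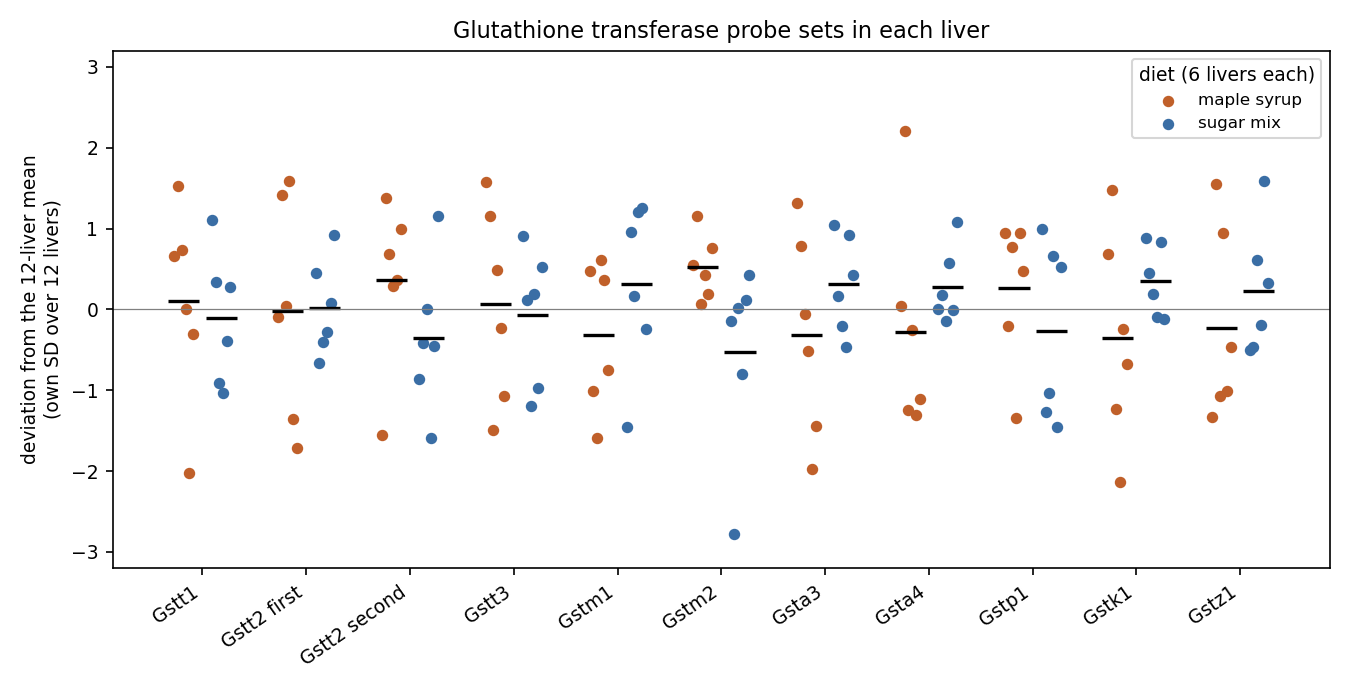
Each point is 1 liver, placed by its deviation from the mean of the 12 livers in units of the probe set's own standard deviation; orange is maple syrup, blue is sugar mix (6 livers each), and bars are diet means. The diets overlap in every probe set, and the lowest point is sugar mix replicate 2 in Gstm2 at -2.78.

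Of the 11 probe sets, 6 (54.5%) were among the widest 10% of the array: Gstt3, Gstm2, Gsta3, Gstk1, Gsta4 and Gstt1. The wide spread of Gstt3 was known when the genes were chosen, so this count is a description. In the deposited score a wide spread can come from the animals or from how the score was made, and these cannot be told apart here. Within a probe set the scale is shared by all livers, so the spread can be set side by side between the diets. The standard deviation was larger among the maple syrup livers in 8 of 11 probe sets (72.7%), against 50.1% of all tested probe sets. In Gsta4 it was 0.000404 with maple syrup and 0.000140 with the sugar mix, and in Gstk1 0.00132 and 0.000445. Gsta3 had 0.0220 and 0.0105, and Gstt3 0.114 and 0.0787. Gstm2 went the other way, with 0.00928 and 0.0274, as did Gstm1 and Gstp1. The members vary together, so these are not 11 independent counts, and no test was made. Without maple syrup replicate 5 the count was 7 of 11 (63.6%, against 45.7% of all probe sets). Without replicate 2 it was 8 (against 49.5%), and without replicate 6 it was 8 (against 46.1%).

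**Figure D2:**
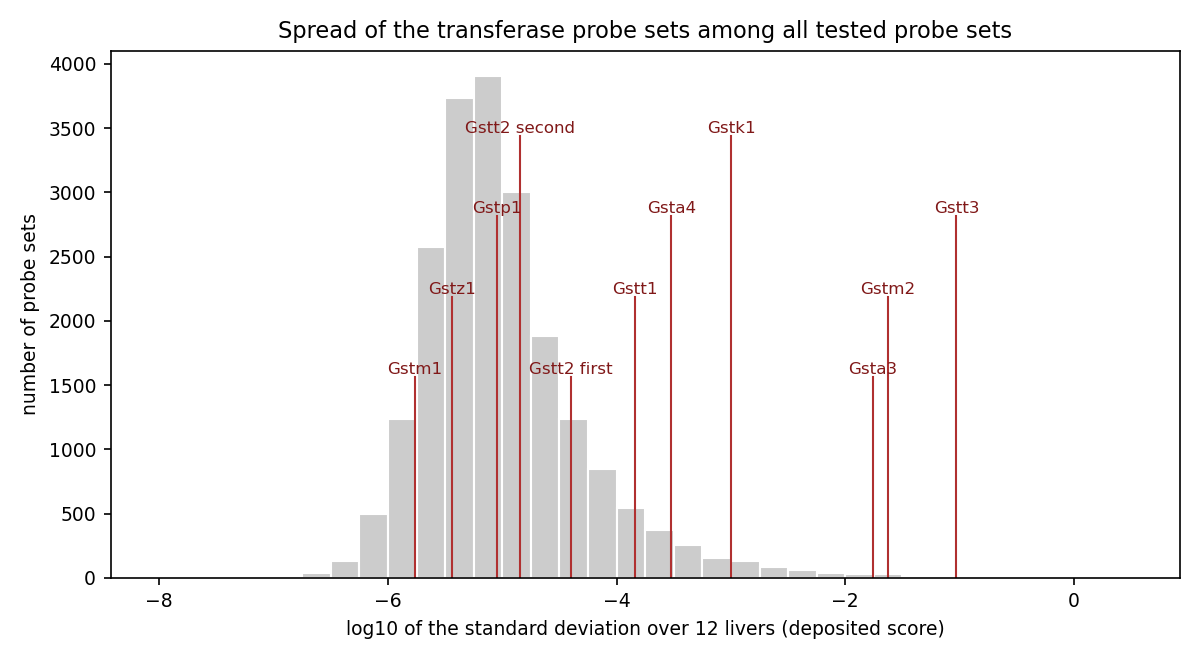
Grey bars count the tested probe sets by the log10 of their standard deviation over 12 livers in the deposited score, and red lines mark the transferase probe sets; 2 probe sets of the array lie below the plotted range. Gstt3, Gstm2 and Gsta3 stand in the far right tail, and Gstm1 stands on the left side.

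The comparison of the diets asked whether maple syrup shifted any transferase relative to a syrup of like sugars. With limma and Benjamini-Hochberg adjustment over 20826 probe sets, 0 were higher (0.0%) and 0 lower (0.0%) with maple syrup, with 0.627 as the lowest adjusted p. Before adjustment, 434 had p under 0.05 and a higher mean (2.08%) and 439 a lower one (2.11%), 4.19% in all, and 0 of the 11 transferase probe sets were among them. The diets overlapped in all 11, whereas 0.096% of all probe sets had no overlap. All 11 had a limma adjusted p of 1.0. The diet mean was higher with maple syrup in 5 of the 11, against 48.7% of all probe sets, and the median g was -0.03, against -0.02 over all.

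Gstm2 had the largest g of the 11, 1.11 (95% interval -0.07 to 2.23), and when each maple syrup animal was set against each sugar mix animal, maple syrup was higher in 32 of 36 cases. Its mean was 0.53 ± 0.40 own SD with maple syrup and -0.53 ± 1.17 with the sugar mix (SD, n = 6 each). The limma p before adjustment was 0.0559, and the exact permutation test of this probe set, two-sided over all arrangements of the animals, gave 0.0195 before any adjustment. Without sugar mix replicate 2, its low liver, g was 1.30 (95% interval 0.04 to 2.51), and without sugar mix replicate 6 it was 1.32 (0.06 to 2.54). Without any other single liver the interval included 0, and g was lowest without maple syrup replicate 2, at 0.944 (-0.245 to 2.089). Gstm2 is thus a gene whose means lie apart by about its spread, without passing a test over the array.

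The other estimates were smaller than 0.70 in size and each interval included 0. In the theta class g was 0.18 for Gstt1 (95% interval -0.87 to 1.22), -0.03 for the first Gstt2 probe set (-1.08 to 1.01), 0.68 for the second (-0.42 to 1.75) and 0.13 for Gstt3 (-0.92 to 1.17). For Gstt3 maple syrup was higher in 19 of 36 pairs, about as many as lower. Without maple syrup replicate 1 or 2, or sugar mix replicate 3 or 5, the sign of Gstt3 turned, with a moderated t of -0.28 at the lowest. In the alpha class g was -0.59 for Gsta3 (-1.65 to 0.50) and -0.51 for Gsta4 (-1.57 to 0.57); for Gsta4 maple syrup was higher in 9 of 36 pairs. Gstm1 had g = -0.59 (-1.65 to 0.50), Gstk1 -0.67 (-1.74 to 0.43), Gstz1 -0.41 (-1.46 to 0.66) and Gstp1 0.49 (-0.59 to 1.54). Each of these 10 estimates moved by more than 1.5 times when 1 liver or another was left out, and in 3 of them the interval then left 0. Without maple syrup replicate 2, g was -1.78 for Gsta4 (-3.11 to -0.40) and -1.27 for Gstk1 (-2.47 to -0.01), and without replicate 1 it was 1.34 for the second Gstt2 probe set (0.07 to 2.56), all still uncalled after limma's adjustment. With all 12 livers the intervals are wide enough to hold a shift of more than 1 standard deviation in at least 1 direction for every probe set.

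**Figure D3:**
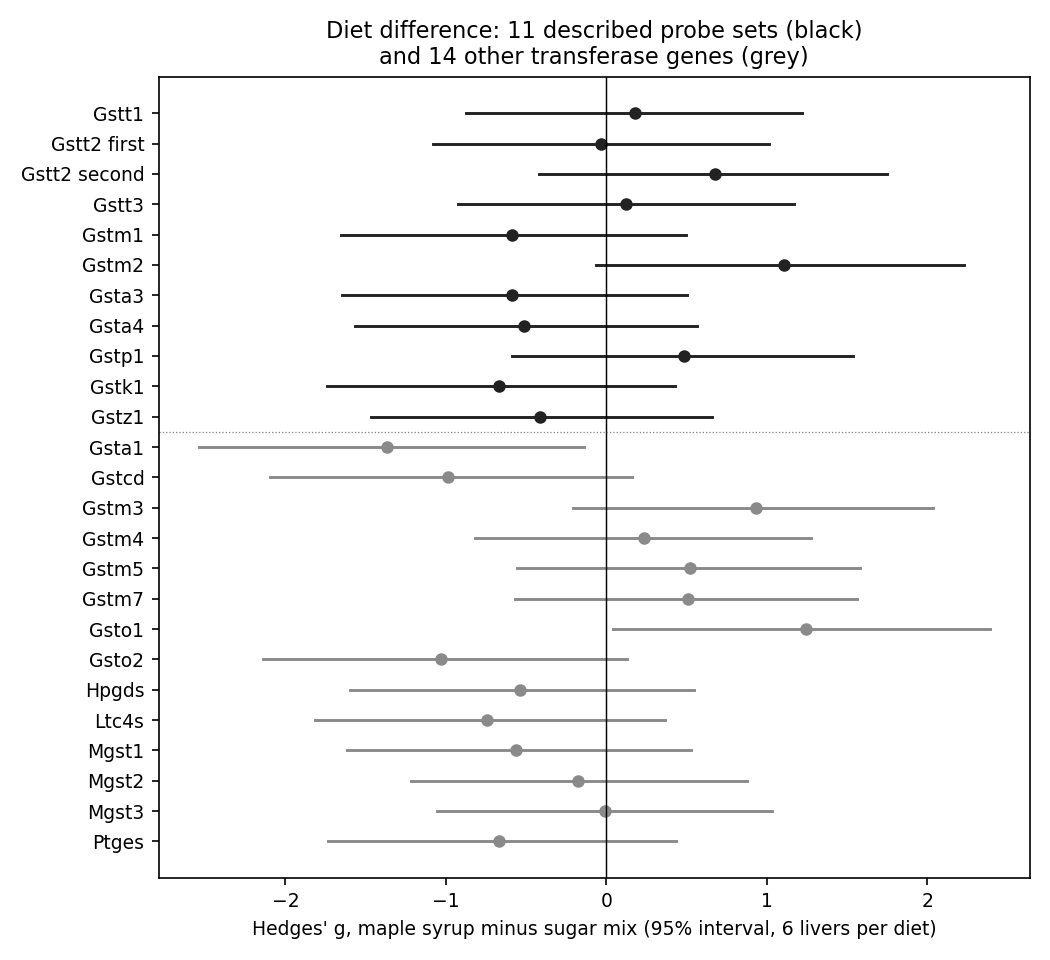
Points are Hedges' g for maple syrup minus sugar mix and lines its 95% interval, for the 11 described probe sets (black) and the 14 measured genes of the list of other transferases (grey). All black intervals cross 0; of the grey ones, Gsta1 and Gsto1 do not.

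Other transferases and the genes around them were read from pathway lists. Of the 19 listed other transferases and related enzymes 14 were measured, 0 passed in either direction, and the mean was higher with maple syrup in 5 and lower in 9. Their median g was -0.36, against -0.04 over all 14217 genes, of which 47.1% were higher. The 2 with the smallest p, an order that favours large g, were Gsta1, a major alpha enzyme of liver (g = -1.37, 95% interval -2.54 to -0.14), and Gsto1, an omega enzyme (g = 1.24, 0.04 to 2.39). Both had a limma adjusted p of 1.0. Among the mu genes outside the 10, Gstm3 had g = 0.93, Gstm5 0.52, Gstm7 0.51 and Gstm4 0.24. The microsomal Mgst1 had g = -0.56, Mgst2 -0.18 and Mgst3 -0.01. Gstm4 was the widest of this list, with a standard deviation of 0.00148 (larger than in 98.6% of probe sets), while Mgst1 was narrower than nearly all of the array (0.0768% were narrower still).

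Of 20 measured genes that make, recycle or take apart glutathione, 0 passed and 9 had a higher mean with maple syrup. Those with the smallest p were Chac1, which degrades glutathione (g = -1.18), and Gclm, the modifier subunit of the enzyme that starts its synthesis (g = 1.17). Among 16 glutathione peroxidases and thiol enzymes 0 passed and 6 were higher. Txnrd1, thioredoxin reductase, had g = 1.16, and Adh5, which handles the glutathione adduct of formaldehyde, had -1.07. Of 13 genes that export or process conjugates 0 passed and 8 were higher; Kyat1, a lyase of cysteine conjugates, had g = -1.37 and Abcc3, an export pump, -1.26. In the list for tyrosine breakdown, the pathway of Gstz1, 0 of 6 passed and 2 were higher. These 2, Qdpr (g = 0.64) and Gch1 (0.58), serve the tetrahydrobiopterin cofactor and not the breakdown itself. The lower ones were Hgd (g = -0.86), Tat (-0.51), Hpd (-0.41) and Fah (-0.39).

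The factors that control transferases and their other targets gave a like picture. Of 18 regulators 0 passed and 7 were higher; Mafg, a partner of NRF2, had g = 0.55 and Nr1i2, the receptor PXR, -0.46. Of 15 NRF2 targets outside the transferases 0 passed and 7 were higher: Me1, malic enzyme, had g = 1.32 and Srxn1, sulfiredoxin, -1.32. Of 14 CAR and PXR targets 0 passed and 7 were higher: Akr1b7, an aldo-keto reductase and the most variable probe set of the array, had g = -1.15 and Aldh1a1 0.99. Of 7 AHR targets 0 passed and 5 were higher, with Nqo1 at -1.14 and Tiparp at 0.55. Within these lists estimates ran in both directions.

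Markers of other liver cells are given for the same libraries. Of 8 Kupffer cell and macrophage markers 1 had a higher mean with maple syrup. Their summed level (mean of own SD units) ran from -1.41 to 0.77 with maple syrup and from -0.20 to 0.96 with the sugar mix. The exact permutation p of that level was 0.273 (adjusted p = 0.92 over 24 measures). Of 10 periportal hepatocyte markers 1 was higher, with a summed level from -1.16 to 0.08 with maple syrup and from -0.08 to 1.03 with the sugar mix (exact permutation p = 0.0152, adjusted p = 0.365 over 24 measures). Its members with the largest differences, named after their values were seen, were Pck1, the gluconeogenic carboxykinase (g = -1.92, 95% interval -3.22 to -0.55), Asl, of the urea cycle (-1.67, -2.91 to -0.37), and Sds, serine dehydratase (-1.42, -2.60 to -0.18). Each had a limma adjusted p of 1.0. These differences were larger than any of the 11 transferase probe sets had with all 12 livers. Of 10 pericentral markers 6 were higher. Of the other marker lists, 5 of 7 sinusoidal endothelial, 3 of 10 stellate, 1 of 5 cholangiocyte, 2 of 3 erythroid, 0 of 3 neutrophil, 4 of 6 T and NK, 2 of 3 B and plasma, and 6 of 8 hepatocyte markers were higher. In every list 0 genes passed the test. Fewer cells of a type and less RNA per cell cannot be told apart in whole liver, and the part of these cells in the transferase values was not tested.

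The sequences upstream of the start are shown for 4 genes: Gstt3, Gsta4 and Gsta3, whose values had positive correlations with each other (given after the sequences), and Gstp1, whose window holds all 3 motifs searched. They are the 250 bases before a transcript start that RefSeq (GRCr8) lists, 5′ to 3′ on the gene's strand; for Gstt3, Gsta4 and Gstp1 that start lies inside the gene's whole span given above. They are printed with capitals for matches to 3 motifs on either strand: the core of the antioxidant response element (TGACNNNGC), through which NRF2 acts, the AP-1 site (TGACTCA), and the core of the AHR element (GCGTG). The places are chr20:12874368-12874617 (plus strand) for Gstt3, chr8:87947015-87947264 (plus) for Gsta4, chr9:31154739-31154988 (plus, the first of 2 listed starts) for Gsta3 and chr1:210769706-210769955 (minus) for Gstp1.
Gstt3: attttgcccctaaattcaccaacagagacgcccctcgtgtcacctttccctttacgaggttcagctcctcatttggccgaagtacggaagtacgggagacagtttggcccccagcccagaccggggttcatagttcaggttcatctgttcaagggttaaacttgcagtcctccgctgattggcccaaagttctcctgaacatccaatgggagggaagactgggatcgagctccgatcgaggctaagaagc
Gsta4: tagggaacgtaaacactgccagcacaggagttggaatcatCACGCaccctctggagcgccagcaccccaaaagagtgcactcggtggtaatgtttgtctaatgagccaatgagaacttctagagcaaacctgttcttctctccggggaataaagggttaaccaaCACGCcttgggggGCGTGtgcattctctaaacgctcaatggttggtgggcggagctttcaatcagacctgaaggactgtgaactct
Gsta3: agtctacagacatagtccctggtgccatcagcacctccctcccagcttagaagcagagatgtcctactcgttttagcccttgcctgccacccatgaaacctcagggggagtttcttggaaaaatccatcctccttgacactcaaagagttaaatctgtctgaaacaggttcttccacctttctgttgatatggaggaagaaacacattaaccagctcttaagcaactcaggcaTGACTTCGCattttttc
Gstp1: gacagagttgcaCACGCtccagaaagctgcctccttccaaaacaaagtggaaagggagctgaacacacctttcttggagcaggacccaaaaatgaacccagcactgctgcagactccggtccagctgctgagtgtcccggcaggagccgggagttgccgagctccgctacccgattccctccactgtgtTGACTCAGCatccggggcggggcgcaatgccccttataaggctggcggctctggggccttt

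RefSeq upstream sequence was at hand for 8 of the 10 genes; Gstt1 and Gstt2 are named only. The antioxidant element core was found in 3 of the 8, Gsta3, Gstp1 and Gstz1, and in 10.1% of 33469 upstream windows of the same length. In Gstp1 the match lies 61 to 53 bases before the start and overlaps the AP-1 site, which is held by 4.05% of windows. In Gsta3 it lies 17 to 9 bases before the first start. The AHR element core was found in 3 of the 8, Gsta3, Gstp1 and Gsta4 (3 matches), and in 25.9% of windows. In Gsta3 it lies only in the window of the second start, which is not printed. Gsta3 was counted over both of its windows, while the percentages are per window. None of the 3 motifs is in the window of Gstt3, Gstm1, Gstm2 or Gstk1. A match describes letters and does not show that a factor binds there.

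Across the 12 livers, the 45 pairs of the 10 genes had 33 positive and 12 negative correlations, with a median Pearson's r of 0.18, against 0.01 for the pairs of 1 of these genes with any other gene. An r of at least 0.6 in size was reached by 4 of 45 pairs (8.89%), against 3.95% of the pairs with other genes. With permutation tests of 100000 resamples, 9 of 45 pairs had p under 0.05 and 0 held after Benjamini-Hochberg adjustment over the 45. With quantile normalization, 2 of 36 pairs had a permutation p under 0.05. For pairs with other genes this share was counted for Gstt3 only, at 3.79%. All 12 values share their arrays and their processing.

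All 10 pairs among the theta and alpha genes were positive in the deposited values, a grouping seen in these values and given with no test; with quantile normalization Gstt1 with Gstt2, Gstt2 with Gsta3 and Gsta3 with Gsta4 were negative. Gstt1 with Gsta4, 0.49 over 12 livers, was -0.13 without the 2 livers farthest in Gstt1. Within the sugar mix r was 0.05 for this pair and -0.20 for Gsta3 with Gsta4, against 0.69 and 0.67 within maple syrup. The other pairs of the block were positive within both diets. Gstt2 with Gsta3 was 0.03 without the 2 livers farthest in Gsta3 and 0.69 without the 2 farthest in Gstt2. Some pairs that reach outside the block were as high as several within it. Over 12 livers r was 0.58 for Gsta4 with Gstz1, 0.58 for Gsta4 with Gstk1 and 0.57 for Gstt2 with Gstz1. Within the sugar mix these were -0.18, -0.71 and 0.12. Others were near 0 over 12 livers, such as Gstt2 with Gstk1 (0.01) and Gstt3 with Gstz1 (-0.02). Gstt1 and Gsta3, on different chromosomes, had the highest r, 0.74 (permutation p = 0.00639, adjusted p = 0.224), with rho = 0.66 (permutation p = 0.0229, adjusted p = 0.258). Without the 2 livers farthest from the median of Gstt1, r was 0.53. Within the diets r was 0.86 with maple syrup and 0.74 with the sugar mix. After the diet means were removed r was 0.82, with an adjusted permutation p of 0.0495, so that this pair alone passed in that form. That permutation ran over all 12 livers without allowing for the diet means removed, so its p can be too small. With diet means kept, r was 0.58 with quantile normalization (adjusted permutation p = 0.857) and 0.65 with median centring (adjusted permutation p = 0.188).

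Gstt3 was nearest among the 10 to Gsta4, with r = 0.61 (permutation p = 0.032, adjusted p = 0.224) and rho = 0.67 (permutation p = 0.0196, adjusted p = 0.258). Without the 2 livers farthest from the median of Gstt3, r was 0.63, and it was 0.73 within maple syrup and 0.53 within the sugar mix. With quantile normalization it was 0.08. For the neighbours on chromosome 20, r was 0.45 for Gstt1 with Gstt3 (permutation p = 0.141, adjusted p = 0.374; rho = 0.48, permutation p = 0.124, adjusted p = 0.427; 0.43 without the 2 livers farthest in Gstt1). For Gstt1 with Gstt2 r was 0.60 (permutation p = 0.0414, adjusted p = 0.224) and rho 0.52 (permutation p = 0.0853, adjusted p = 0.384), and r was 0.29 without the 2 livers farthest in Gstt1 but 0.78 without the 2 farthest in Gstt2. Gstt2 and Gsta4 had r = 0.64 (permutation p = 0.0229, adjusted p = 0.224) but rho = 0.41 (permutation p = 0.192, adjusted p = 0.54); without the 2 livers farthest in Gstt2, r was 0.77, and without the 2 farthest in Gsta4 it was 0.39.

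**Figure D4:**
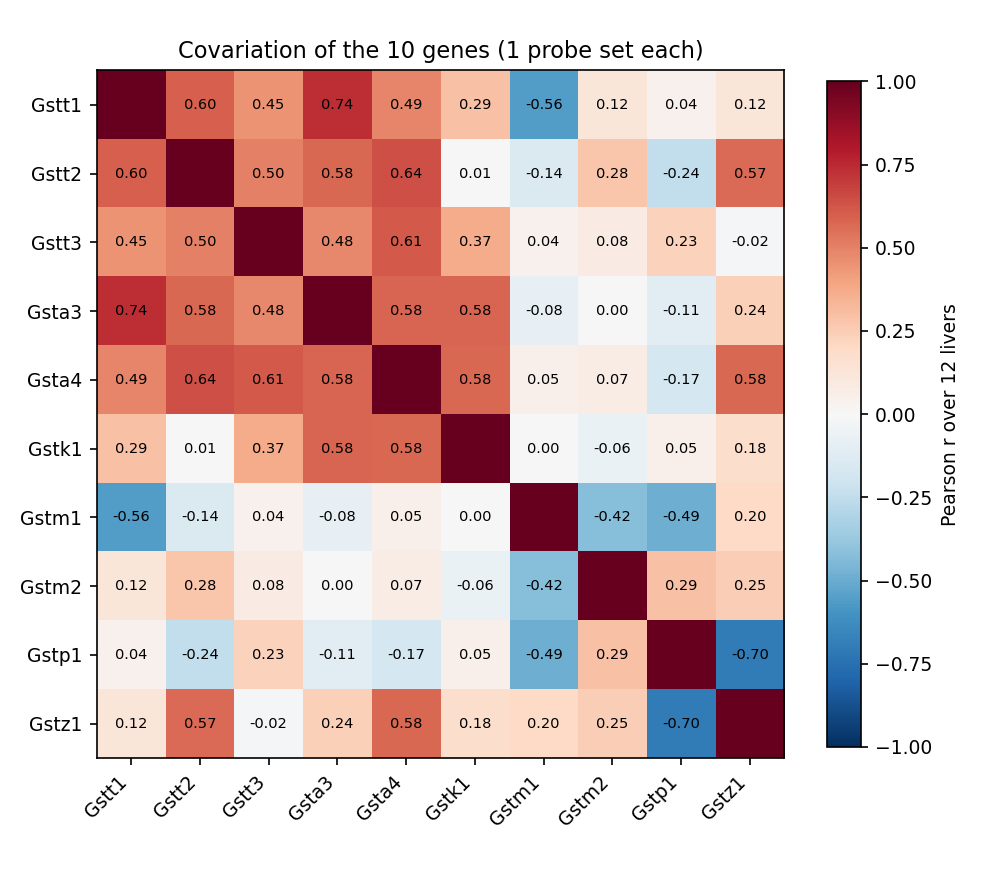
Cells give Pearson's r over 12 livers for each pair of the 10 genes, 1 probe set each, from blue (negative) to red (positive). The block of theta and alpha genes at the upper left is red throughout (0.45 to 0.74), and the cell of Gstp1 with Gstz1 is the deepest blue (-0.70).

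The mu genes stood apart from this block and from each other, with r = -0.42 between Gstm1 and Gstm2 (permutation p = 0.173, adjusted p = 0.432; rho = -0.29, permutation p = 0.355, adjusted p = 0.695; -0.62 without the 2 livers farthest in Gstm1 and -0.21 without the 2 farthest in Gstm2). The lowest r was that of Gstp1 with Gstz1, -0.70 (permutation p = 0.0142, adjusted p = 0.224), with rho = -0.80 (permutation p = 0.00294, adjusted p = 0.107). It was -0.51 without the 2 livers farthest in Gstp1, -0.84 within maple syrup and -0.55 within the sugar mix. Both genes vary by far less than the medians of the arrays differ (7.36619 to 7.36632). With each array centred on its median this r became 0.96, so its direction depends on that choice. For Gsta3 with Gstk1 r was 0.58 (permutation p = 0.0471, adjusted p = 0.224), with rho = 0.77 (permutation p = 0.00477, adjusted p = 0.107) and r = 0.73 without the 2 livers farthest in Gsta3 and 0.64 without the 2 farthest in Gstk1.

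**Figure D5:**
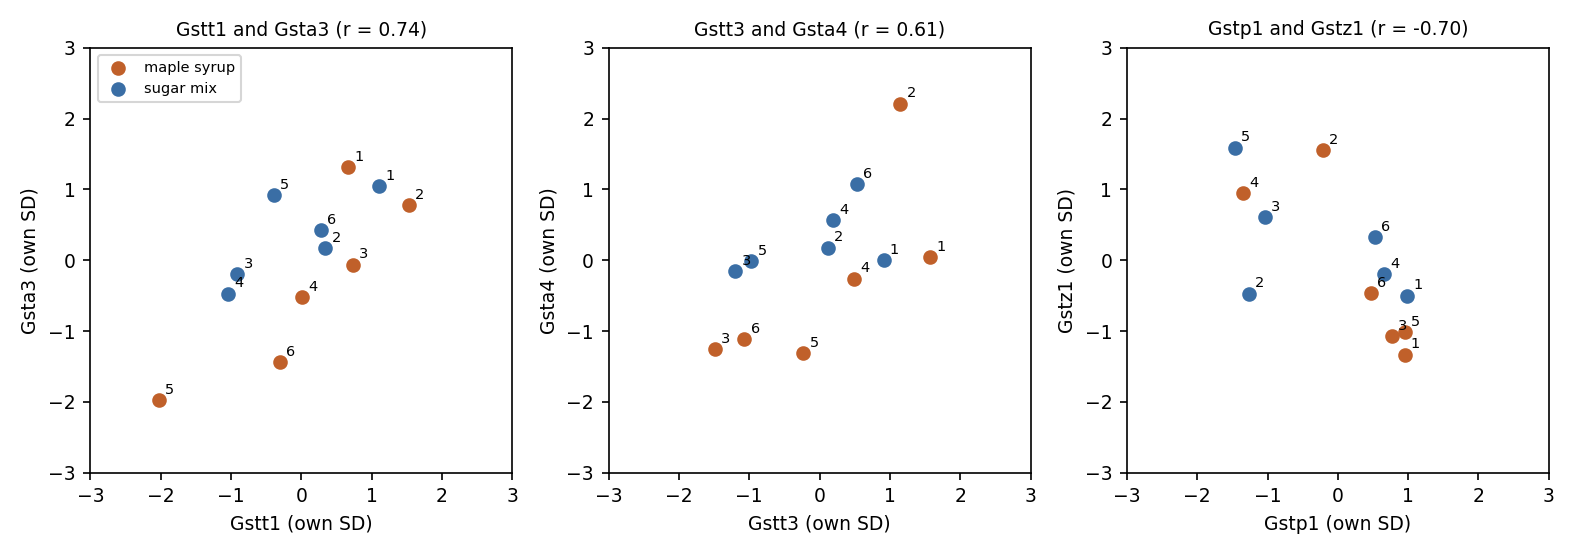
Each panel sets 2 genes against each other in own SD units, with 1 point per liver, colours for the diets and numbers for the replicates. Maple syrup replicates 5 and 6 are the lowest in Gsta3, maple syrup replicate 2 is the highest in Gsta4, and Gstz1 is low in most livers where Gstp1 is high.

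Some livers stood at the ends of several genes. Maple syrup replicate 2 was the highest of 12 livers in 4 of the 10 genes (Gstt1, Gstm2, Gsta4 and Gstk1) and above the mean in 8. Maple syrup replicate 5 was the lowest in 3 (Gstt1, Gsta3 and Gsta4) and above the mean in 3, and maple syrup replicate 6 was above the mean in 2. Their median deviations over the 10 genes were 1.28, -0.62 and -0.71 own SD, and those of the sugar mix livers ran from -0.18 to 0.67. By these medians the livers at both ends were of 1 diet, and the sugar mix livers lay closer together. The 10 genes vary together, so the counts are not independent, and the same counts over all genes were not made. The median over all tested probe sets was lowest in maple syrup replicate 2 (7.68158) and highest in maple syrup replicate 5 (7.68245).

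By Pearson's r over the 12 livers, the 5 genes most like Gstt3 were Bcl2l10 (0.86), Ranbp17 (0.86), Abi2 (0.86), Ehbp1l1 (0.85) and Abhd4 (0.83), and those most opposed were Vkorc1 (-0.86), Arrdc4 (-0.84), Naa16 (-0.82), Pkd2l2 (-0.82) and Sall4 (-0.79). After adjustment over 14216 genes, 0 correlations with Gstt3 passed (0.0%) and the smallest adjusted permutation p was 1.0; at an unadjusted permutation p of 0.05, 539 were counted (3.79%). For Bcl2l10 rho was 0.85 (permutation p = 0.00101; p of r = 0.00033), and r was 0.94 without the 2 livers farthest in Gstt3. For Vkorc1 rho was -0.82 (permutation p = 0.00188; p of r = 0.00058), and r was -0.74 without them. These genes are far narrower than Gstt3, with standard deviations of 2.52e-06 and 4.27e-06. By the same measure 194 genes had a higher r with Gstt3 than Gsta4 did, 632 than Gstt2, 775 than Gsta3 and 951 than Gstt1.

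Gstt3 was also set against 24 measures: the summed levels of 20 lists, the array median and the 5′ probe sets of 3 RNA controls, the last added after the values were seen. None held after adjustment. The highest r was with NRF2 targets outside the transferases, 0.59 (permutation p = 0.0432, adjusted p = 0.352; rho = 0.52, permutation p = 0.0829, adjusted p = 0.664), and it was 0.16 without the 2 farthest livers, so that it rests on them. With the other transferases r was 0.58 (permutation p = 0.044, adjusted p = 0.352; rho = 0.66, permutation p = 0.0243, adjusted p = 0.514), and 0.71 without them. With erythroid markers, a sign of blood in the tissue, r was -0.62 (permutation p = 0.0302, adjusted p = 0.352; rho = -0.60, permutation p = 0.0428, adjusted p = 0.514), and -0.53 without them. That list held only 3 measured genes, and its part in the values of Gstt3 was not tested. For CAR and PXR targets r was -0.14 and for the array median 0.17, with permutation p = 0.667 and 0.621 (rho = -0.08, permutation p = 0.816, and 0.05, permutation p = 0.886).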

How the data were processed

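The authors' deposited value table holds 31099 probe sets on 12 arrays with 0 missing values and is used as a score; how it was summarized, scaled and normalized is not given in the sources used here. Per the labels' protocols, biotin-labelled cRNA was made from 2 ug of total RNA. Gene symbols came from GEO's platform annotation, updated with RefSeq's gene table: 20832 had 1 symbol (6 of them controls, left out with the other control probe sets, 57 in all), 436 had several, and 9831 are unnamed here. No filter and no further normalization was applied. The design had assumed processed array values on 1 scale, and its test was kept.

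The test between diets was that of limma 3.58.1 (R 4.3.3), two-sided, with the variance prior following the mean level and Benjamini-Hochberg adjustment over 20826 probe sets at 0.05; the code was tested on simulated data. Hedges' g has a 95% interval from the noncentral t distribution. Single probe sets had an exact permutation test over all arrangements of the animals, whose smallest p is 0.00216. Correlations used the probe set with the highest mean of each gene and 100000 resamples (scipy 1.17.1); figures used matplotlib 3.10.9. Upstream motifs were searched in windows of 250 bases.

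Named were all members, the genes nearest to each in Pearson's r (5 highest and 5 lowest for Gstt3, 1 for the others), and in each pathway list the 2 genes with the smallest p. The further transferases, the further genes of the tyrosine list and the widest gene were named after their values were seen. The members and lists were chosen with earlier results of these data known. Alternatives are given in the closing section.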

Additional observations from a re-analysis of the deposited data

Results flagged for a closer look

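Of 22 combinations of a probe set and a diet, 1 had a liver set far apart from the remaining 5; about 1.1 such combinations arise by chance. It was the second Gstt2 probe set, in which maple syrup replicate 1 stood at -1.56 own SD while the other maple syrup livers lay between 0.29 and 1.38.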

How the results depend on the processing

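The counts of 0 probe sets higher and 0 lower with maple syrup held under every normalization, filter, array weighting and left-out array tried and with the replicate block (0 and 0, with 912 probe sets at an unadjusted p of 0.05 against 873 without it). With values divided by each probe set's own within-diet standard deviation, 14 were called higher and 10 lower, none of them among the 11 described; by construction all probe sets then have 1 residual variance, which limma takes as known. The labels number the replicates without saying whether same-numbered arrays belong together. Correlations of same-numbered arrays after diet means were removed (r between -0.043 and 0.12) cannot settle this. Signs of uncalled diet differences turned in the first Gstt2 probe set (moderated t = 0.24 with median centring and 0.51 with array weights), in Gstm1 (0.31) and Gstz1 (0.28) with median centring and in Gstp1 (-1.22) with quantile normalization, which left Gstm1 constant. With single arrays left out, t ran from -0.15 to 1.39 for Gstt1, -0.66 to 0.56 for the first Gstt2 probe set, -0.28 to 0.82 for Gstt3 and 1.77 to 2.48 for Gstm2, and adjusted p stayed above 0.05 in all 11. Median centring, which adds the array medians' differences to narrow probe sets, gave 4 pairs with an adjusted p under 0.05 and a median r of 0.337; Gstt1 with Gstt2 then had 0.80 and Gstp1 with Gstz1 0.96. Removing diet means gave 1 pair, Gstt1 with Gsta3, by a permutation p that can be too small. Quantile normalization gave 0 pairs and a median r of 0.086, over 36 pairs. Leaving out arrays gave 0 pairs, with a median r of 0.139 to 0.243. With quantile normalization r was -0.28 for Gstt1 with Gstt2, -0.12 for Gstt2 with Gsta3 and -0.17 for Gsta3 with Gsta4; the cause was not tested.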

Other observations

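The gene most like each of the other 9 transferases by Pearson's r over the 12 livers was picked as the highest among all named genes, so these r are too high as estimates. Gstm2 was nearest to Cyp2c13, a cytochrome P450 of male rat liver, with r = 0.95 (permutation p = 0.00024 before adjustment) and rho = 0.85 (permutation p = 0.00096); r was 0.74 without the 2 livers farthest in Gstm2. Both are wide probe sets, with standard deviations of 0.0234 and 0.0043, and g was 1.11 and 0.98. Gstz1 was nearest to Bckdhb, a subunit of the enzyme that degrades branched-chain keto acids (r = 0.92, permutation p = 2e-05; rho = 0.95, permutation p = 1e-05, the smallest that these resamples give; r = 0.91 without the 2 farthest livers). The others were Gsg1 for Gstt1 (r = 0.92), Tgfbi for Gstt2 (0.91), Tmem237 for Gstm1 (0.85), Klhl5 for Gsta3 (0.91), Gpr27 for Gsta4 (0.87), Taf6l for Gstp1 (0.91) and Tfap2a for Gstk1 (0.93). Adjustment over all genes was not made for these 9.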
